A study of Arabidopsis thaliana with 12 samples.

Results

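The local response of roots to induction of CLE3 was taken from 5 of 12 arrays, 3 of roots treated with estradiol and 2 of roots treated with DMSO. The arrays were chosen by their titles and by tissue profile, since 1 array titled root DMSO had the profile of a shoot and was left out. Every array came from Arabidopsis thaliana seedlings that carry an estradiol-inducible CLE3 transgene, so the DMSO roots carry it too. Roots of 7-day-old plants grown at 22 °C received 5 mM β-estradiol, as the labels give the dose, or the solvent DMSO for 24 h, after which roots and shoots were collected apart. The labels name neither the promoter that drives the inducible system nor the number of transgenic lines. Since all arrays share the transgene, the action of estradiol itself and that of the induced gene cannot be told apart in this contrast. Whether replicates were grown apart is not in the labels, and the p-values therefore reflect the spread of these samples alone, which may be technical.

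CLE genes encode small secreted peptides that are cut from longer precursors and read by leucine-rich repeat receptor kinases at the surface of neighbouring cells. In plant meristems and vascular tissue such peptides hold stem cells and their daughters in balance, and in roots several of them bear on meristem size, phloem and xylem formation, lateral root growth and nutrient responses. The study asked which genes lie downstream of CLE3. The induced gene itself was not checked here, because no feature carries the name CLE3 in the platform annotation used, and no sequence of a probe or gene was given. RNA came from whole roots, so fewer cells of a type and less RNA per cell cannot be told apart.

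The tissue of each array was examined first. Among the 5 root arrays the correlation across 38408 features was 0.984 to 0.989, and between root and shoot arrays it was 0.869 to 0.882. For the array titled root DMSO replicate 3 the mean correlation was 0.874 to the root arrays and 0.981 to 5 shoot arrays. For the array titled shoot estradiol replicate 3 it was 0.986 to the roots and 0.874 to the shoots. BGLU21, a beta-glucosidase of root endoplasmic reticulum bodies, had log2 values of 10.21 to 10.44 on the 5 root arrays, 2.79 on the array titled root DMSO replicate 3 and 10.53 on the array titled shoot estradiol replicate 3. SBPASE, a Calvin cycle enzyme, had 6.92 to 7.88, 11.26 and 8.05 on the same arrays. Both arrays thus went against their tissue labels, and neither entered the main fit. The array titled shoot estradiol replicate 3 served afterwards as a root array held out of the fit, and in an alternative as the third root DMSO array. Its title names estradiol and the labels do not settle which treatment it received, so its use as a DMSO array is an assumption.

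**Figure D1:**
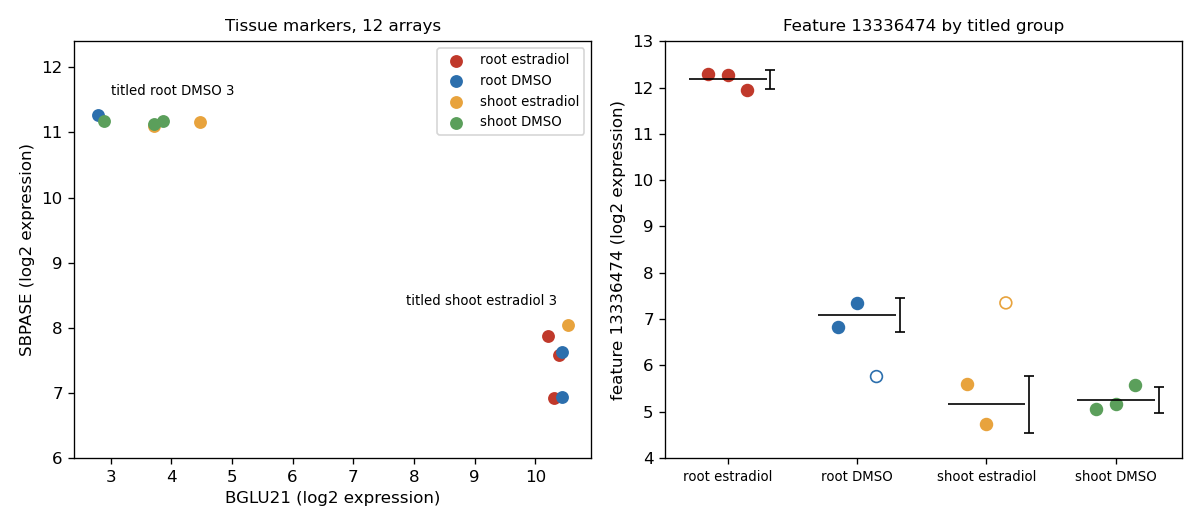
Left, log2 expression of the root marker BGLU21 (x axis) and the photosynthesis gene SBPASE (y axis) on all 12 arrays, coloured by titled group; the array titled root DMSO replicate 3 lies among the shoots and the array titled shoot estradiol replicate 3 among the roots. Right, log2 expression of feature 13336474 by titled group; the open points are those 2 arrays, and lines with bars are the mean and SD of the filled points. The 3 root estradiol arrays lie between 11.94 and 12.30, and every other array lies at or below 7.35.

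A single feature passed the limma adjusted p threshold of 0.05 in roots, and it was higher with estradiol. Feature 13336474 carries no gene name in the annotation. Whether it reports the induced CLE3 transcript itself or another gene was not tested, so it cannot be counted as a gene downstream of CLE3. The feature had log2 values of 12.30, 12.28 and 11.94 on the 3 estradiol arrays and of 6.83 and 7.35 on the 2 DMSO arrays. The groups lay far apart, and with estradiol this feature was brighter than 99.4% to 99.6% of all features of its array, against 72.3% and 78.7% with DMSO. The rise was 5.08 in log2 units (SE 0.21), a ratio of 33.9, at a limma adjusted p of 0.0292 (Benjamini-Hochberg over all features). The held-out root array, which took no part in that fit, had 7.35, at the upper DMSO value. With that array as the third DMSO array the rise was 5.00 (SE 0.19) and the limma adjusted p 0.00212. In shoots the same feature lay between 4.73 and 5.60 on the 5 shoot arrays, and its estradiol effect there was -0.10 (SE 0.29, limma adjusted p 0.968). The size of the root difference held between 4.82 and 5.34 when any 1 root array was left out. The call itself was lost in several fits. Among them were each of these 5, with limma adjusted p-values of 0.131 to 0.533, and the fit with all 3 arrays titled root DMSO, where the difference was 5.53 and the adjusted p 0.451.

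No other feature passed the threshold of 0.05. The 1 feature called was 0.0026% of the 38408 tested, and of the 16542 genes with a name in the annotation 0 were called (0.0%). At an unadjusted limma p under 0.05 there were 656 genes, 353 higher (2.13%) and 303 lower (1.83%), which together is 3.97% of all genes. That share lies below the 5% that a threshold of 0.05 passes on average where nothing differs, which would be 827.1 genes. Among the 8011 genes with a mean log2 value of at least 5 it was 168 genes, 2.1%. Over all features it was 2121, 5.52%.

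Most differences were small. The median size of the difference was 0.11 over the named genes, and 99 in 100 genes differed by less than 0.62. The 95% interval of a gene's difference had a median half-width of 0.38, before any adjustment over features, and a call after adjustment needs more than that. The number of arrays thus limits the precision. A difference of 1 or more, a doubling or halving of the signal, was measured for 9 genes, 4 higher (0.0242%) and 5 lower (0.0302%), and 1 of them had a mean of at least 5. Beside feature 13336474 the differences of all features ran from -2.05 to 1.73. Correlations between estradiol and DMSO root arrays were 0.984 to 0.989, beside 0.985 to 0.989 inside the estradiol group and 0.987 inside the DMSO group.

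**Figure D2:**
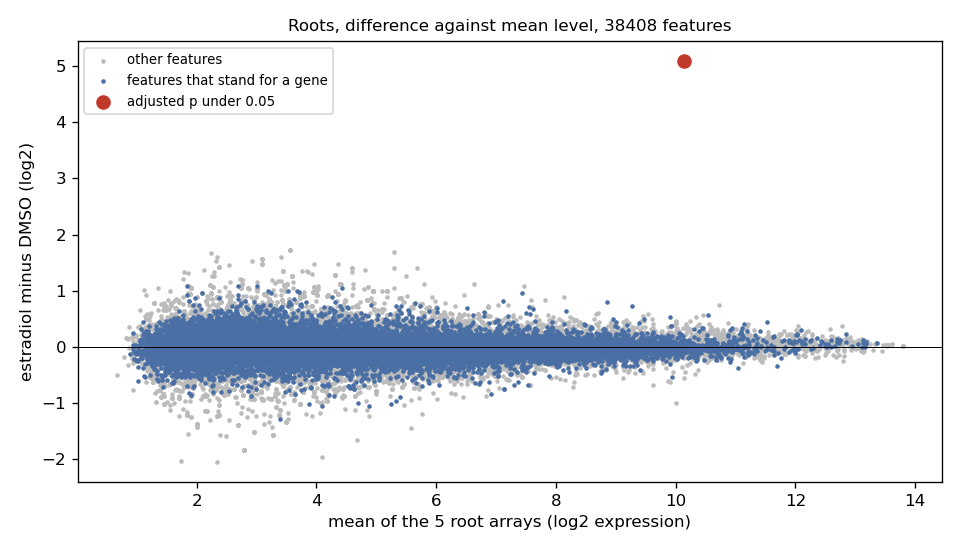
Difference between root estradiol and root DMSO (y axis, log2) against the mean of the 5 root arrays (x axis, log2 expression) for 38408 features. Blue points are features that stand for 1 named gene, grey points are other features, and the red point is feature 13336474 at 5.08; the other differences run from -2.05 to 1.73 and narrow towards high levels.

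Groups that did not overlap were common without a test being passed. All 3 estradiol arrays lay above both DMSO arrays for 1593 genes (9.63%) and below them for 1923 genes (11.6%), and with the third DMSO array these shares were 4.62% and 6.39%. The held-out array lay on the DMSO side of the midpoint between the groups for 8065 of all 16542 genes, 48.8%. Among genes at an unadjusted p under 0.05 it lay there for 151 of 353 higher genes (42.8%) and for 139 of 303 lower genes (45.9%). Among genes with a mean of at least 5 these shares were 43 of 74 higher genes (58.1%) and 40 of 94 lower genes (42.6%), beside 51.9% of all 8011 such genes. These shares are a description of 1 array, and genes are not independent replicates.

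The genes with the smallest p among those with a mean of at least 5 and groups apart are named next, 12 in each direction, and 0 of them passed the threshold. The 12 higher genes had differences of 0.42 to 0.81 with limma adjusted p-values of 0.592 to 0.879, and the held-out array lay on the DMSO side for 8 of them. AT5G62210 had log2 values of 7.94, 7.78 and 7.93 with estradiol and of 7.13 and 7.28 with DMSO, a difference of 0.68 (SE 0.13, limma adjusted p 0.659). The held-out array had 6.84 for it, below both DMSO arrays, and with the third DMSO array the difference was 0.80. AT3G19430 followed the same order, with 9.20, 9.09 and 9.15 against 8.77 and 8.53 and a held-out value of 8.44. For AT1G02590, whose difference was 0.79 (SE 0.13), the held-out value of 5.95 fell among the estradiol arrays at 5.90, 5.91 and 6.09. HRGP1, a hydroxyproline-rich glycoprotein of the cell wall, had 6.86, 6.98 and 7.23 with estradiol and 6.53 and 6.41 with DMSO, and the held-out array had 6.72. With the third DMSO array 10 of these 12 genes kept groups that did not overlap, as did 765 of the 1593 genes apart and higher on the 5 arrays. The 12 were picked by smallest p and level and the 1593 were not, so these counts cannot be compared.

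The 12 lower genes had differences of -1.01 to -0.45 with limma adjusted p-values of 0.592 to 0.838, and the held-out array lay on the DMSO side for 5 of them. With the third DMSO array 9 of these 12 genes kept groups that did not overlap. AT3G46270 had 4.91, 4.75 and 4.87 with estradiol and 6.02 and 5.69 with DMSO, a difference of -1.01 (SE 0.15, limma adjusted p 0.592). Its held-out value of 5.33 lay between the groups. AT1G14550 had 4.87, 5.31 and 4.95 against 5.91 and 5.97, and the held-out value of 5.85 lay close to DMSO. CHI, a chitinase, had 5.65, 5.62 and 5.60 against 6.29 and 6.13, a difference of -0.59 (SE 0.12), yet the held-out array had 5.44, lower than every estradiol array. CYP71B23, a cytochrome P450, had 5.53, 5.26 and 5.30 against 5.90 and 6.02, and the held-out array had 6.03. The 2 DMSO arrays and the held-out array therefore stood together for AT1G14550 and CYP71B23 and apart for CHI. By size among genes with groups apart and a mean of at least 5 in the higher group, AT4G17245 had the largest positive difference, with 7.61, 7.43 and 8.44 against 6.7 and 7.02 and a value of 0.97 (SE 0.33, limma adjusted p 0.879). Its held-out value of 7.37 lay on the estradiol side of the midpoint. In shoots its mean was 11.83 with DMSO and 12.12 with estradiol. AT1G73120 had the largest negative difference, with 4.72, 4.28 and 4.39 against 5.96 and 5.08, a value of -1.05 (SE 0.29, limma adjusted p 0.868) and a held-out value of 4.63.

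**Figure D3:**
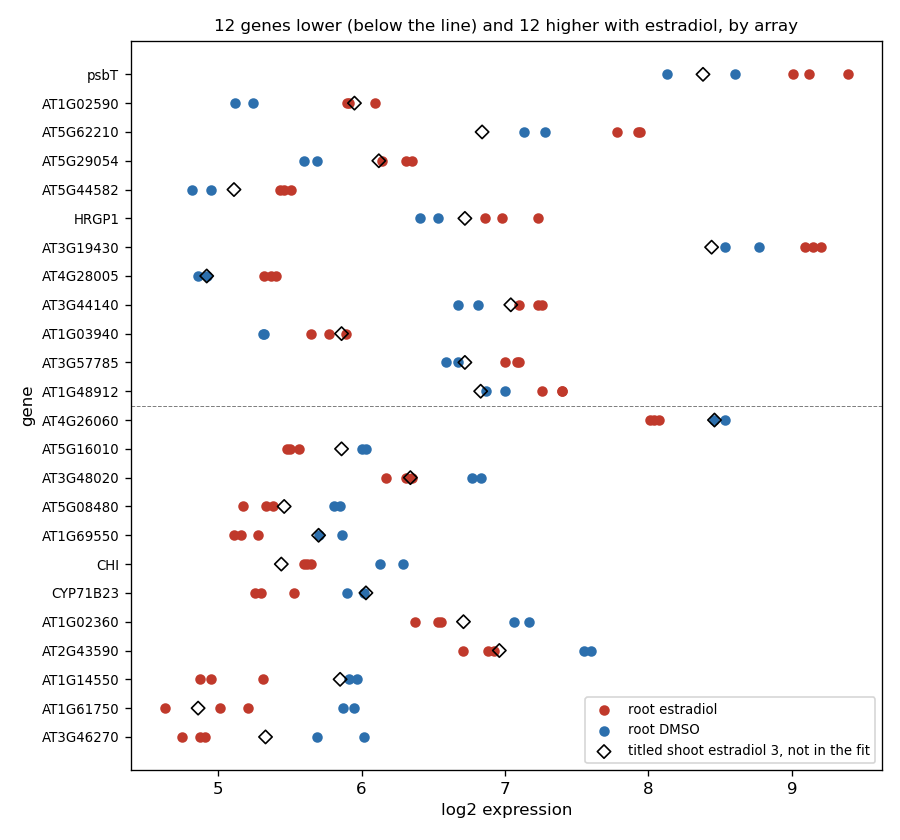
Log2 expression (x axis) of the 12 higher and 12 lower genes with the smallest p among brighter genes (y axis), 1 point for each root estradiol array (red), root DMSO array (blue) and the held-out array titled shoot estradiol replicate 3 (open diamond). Red and blue do not overlap because the genes were chosen so; the diamond lies nearer to the blue points for 8 of the 12 higher and 5 of the 12 lower genes.

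The other peptides of the CLE family showed little, but only 6 of the 17 measured genes had a mean log2 value of at least 5. Of 17 measured CLE genes 5 had a positive and 12 a negative difference (46.8% of all genes had a positive one), with a median of -0.13 against -0.01 over all genes, and with the third DMSO array the median was -0.01. The largest size was 0.33 and limma adjusted p-values were 0.943 to 0.998. CLE26, a peptide of root vascular tissue, had 4.90, 4.89 and 5.17 with estradiol and 4.74 and 4.70 with DMSO, and its held-out value of 5.02 fell among the estradiol arrays. CLE41 and CLE44, chosen here after their values were seen because they encode the peptide that restrains xylem formation, differed by 0.12 (SE 0.13) and 0.15 (SE 0.12). CLE1 differed by -0.33 (SE 0.20), CLE16 by -0.27 (SE 0.17) and CLE42 by -0.20 (SE 0.13). Among 19 receptor-like kinases and partners the median difference was -0.01. SD1-29, an S-domain receptor kinase that senses bacterial fatty acid metabolites, had -0.28 (SE 0.11, limma adjusted p 0.909), with 5.18, 5.07 and 5.17 against 5.40 and 5.44 and a held-out value of 5.37. PXL2, a relative of the xylem peptide's receptor, had -0.18 (SE 0.15).

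Signalling peptides other than CLE had 14 positive and 13 negative differences, median 0.07. Of these 27 genes, 4 lay apart and higher and 3 apart and lower on the 5 arrays, where 9.63% and 11.6% of all genes did. The counts were again 4 and 3 with the third DMSO array, where the shares of all genes were 4.62% and 6.39%. Only 5 of the 27 genes had a mean of at least 5. DVL21 and RALFL30, apart and higher, had DMSO means of 2.00 and 1.14, and RALFL25, apart and lower, had 2.21. RALFL32 and RALFL31, which belong to the rapid alkalinization factor family, differed by 0.27 (SE 0.12) and 0.24 (SE 0.11) with limma adjusted p-values of 0.926 and 0.933. RALFL32 had 6.54, 6.64 and 6.56 with estradiol, 6.37 and 6.25 with DMSO and 6.12 on the held-out array.

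By sign alone, defence genes did not share a direction. The 15 defence effectors and regulators had 8 positive and 7 negative differences. Of these 15 genes 1 lay apart and higher and 4 apart and lower (9.63% and 11.6% of all genes). With the third DMSO array the counts were 0 and 2 (4.62% and 6.39% of all genes). The 7 WRKY transcription factors had 1 positive and 6 negative differences. The 90 genes of the defensin-like list had 46 positive and 44 negative differences. Only 5 of these 90 genes had a mean of at least 5, and the median level of the list was 1.74. That list was picked from gene names and also holds PDF1A and PDF1B, which are peptide deformylases and not defensins. They differed by 0.02 (SE 0.15) and 0.00 (SE 0.14). OSM34, an osmotin-like protein, had 9.95, 9.79 and 9.43 with estradiol and 10.08 and 10.42 with DMSO, a difference of -0.53 (SE 0.20). ChiC, a class V chitinase, had 8.86, 8.64 and 8.20 against 9.09 and 8.97, a difference of -0.47 (SE 0.22). Both had held-out values, 9.96 and 8.91, just above the highest estradiol array. AP2C1, a phosphatase that acts on stress-activated MAP kinases, had 0.37 (SE 0.12) on the 5 arrays and 0.14 with the third DMSO array. WRKY22, an immune transcription factor, had 0.23 (SE 0.15), and WRKY6 had -0.15 (SE 0.12). LCR40, a defensin-like gene of low level, had the largest difference of its list, 0.99 (SE 0.21, limma adjusted p 0.753), with 3.85, 4.21 and 4.14 against 3.34 and 2.81 and a held-out value of 3.1.

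Medians of the hormone lists lay between -0.11 and 0.08, against -0.01 over all genes. Among 23 auxin genes 8 differences were positive and 15 negative, with a median of -0.11, and -0.07 with the third DMSO array. LBD29, a transcription factor of lateral root initiation downstream of auxin, had 6.06, 6.05 and 6.17 with estradiol, 6.83 and 6.41 with DMSO and 6.2 on the held-out array. Its difference was -0.53 (SE 0.16, limma adjusted p 0.879), and LBD16, its partner in that role, had -0.16 (SE 0.15). GH3.3, which conjugates auxin to amino acids, had -0.33 (SE 0.26) with overlapping groups. The 13 cytokinin genes had a median of 0.08, with RR16, a response regulator, at 0.38 (SE 0.25). Only 2 of these 13 genes had a mean of at least 5. The 23 genes of abscisic acid, cold and dehydration had a median of -0.03. In that list STZ, a zinc-finger repressor of stress responses, spread widely, with 8.44, 7.80 and 7.27 against 6.94 and 7.31, and COR47, a dehydrin, had -0.22 (SE 0.12). The 9 jasmonate and ethylene genes had a median of -0.09 and the 14 AP2/ERF factors -0.04.

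In root development and cell wall lists 0 genes passed the threshold. The 16 patterning, vascular and lateral root genes had 4 positive and 12 negative differences, median -0.07. OPS, a polarity protein of the protophloem, had 0.18 (SE 0.13). The 17 cell cycle genes had a median of -0.01 and the 25 histone and chromatin genes 0.02. Among 34 expansins and xyloglucan enzymes, which loosen the wall, 21 differences were positive. Of these 34 genes 7 lay apart and higher (9.63% of all genes), and 3 with the third DMSO array (4.62% of all genes). XTH26 had 5.05, 4.11 and 4.1 with estradiol, 3.69 and 3.71 with DMSO and 3.52 on the held-out array, a difference of 0.72 (SE 0.32, limma adjusted p 0.933). EXPA7, an expansin of root hairs, had 0.30 (SE 0.14). Prx37, a wall peroxidase, had 9.09, 9.03 and 9.30 against 8.86 and 8.68 with a held-out value of 8.5, a difference of 0.37 (SE 0.14, limma adjusted p 0.904). The 32 peroxidase and redox genes together had 10 positive and 22 negative differences, median -0.06. TBL33, a xylan acetyltransferase, had -0.32 (SE 0.13), and TCL1, a repressor of trichome formation, had 0.87 (SE 0.17) at a low level of 1.86 with DMSO.

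Among metabolic genes the cytochrome P450 list had 17 of 26 negative differences, a median of -0.13, and -0.10 with the third DMSO array. The list was dim, with 4 of 26 genes at a mean of at least 5 and a median level of 3.08. Of its members 7 lay apart and lower (11.6% of all genes did) and 4 were lower at an unadjusted p under 0.05 (1.83% of all genes). Those 4 were CYP718, CYP71B23, CYP71B6 and CYP71B29, and most of the list belongs to the CYP71B subfamily, whose neighbouring copies are near in sequence and may share probes. CYP71B6 had 7.14, 7.16 and 7.19 with estradiol, 7.68 and 7.56 with DMSO and 7.47 on the held-out array, a difference of -0.45 (SE 0.11, limma adjusted p 0.851). CYP71B29 had -0.36 (SE 0.11), but its held-out value of 7.92 fell among the estradiol arrays at 7.88, 7.81 and 7.93. The median of the list was 0.03 without root DMSO replicate 2 and -0.21 without root DMSO replicate 1, so its sign in the main fit changed without the former. The mean level of the list was 3.55, 3.52 and 3.62 with estradiol, 3.58 and 3.72 with DMSO and 3.67 on the held-out array. DFR, the dihydroflavonol reductase of anthocyanin synthesis, had 3.09, 3.22 and 3.47 against 2.69 and 2.55, a difference of 0.64 (SE 0.16, limma adjusted p 0.838), with 3.11 on the held-out array. TMT3, a vacuolar sugar transporter, had 0.56 (SE 0.13), and SWEET11, a sugar exporter, had -0.54 (SE 0.33).

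Nutrient lists held 0 genes past the threshold as well. The 14 nitrate and peptide transporters had a median of -0.07, the 8 phosphate and sulfur genes -0.06, and the 17 iron and zinc genes 0.08, which was 0.00 with the third DMSO array. BHLH101, a transcription factor of the iron deficiency response, had 3.93, 3.89 and 4.07 with estradiol, 3.45 and 3.69 with DMSO and 3.72 on the held-out array, a difference of 0.39 (SE 0.14, limma adjusted p 0.888). ILR3, a further regulator of iron homeostasis, had -0.26 (SE 0.13). AT1G47395 spread as widely within groups as between them, with 5.24, 5.44 and 6.44 with estradiol, 4.54 and 5.42 with DMSO and 6.44 on the held-out array.

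**Figure D4:**
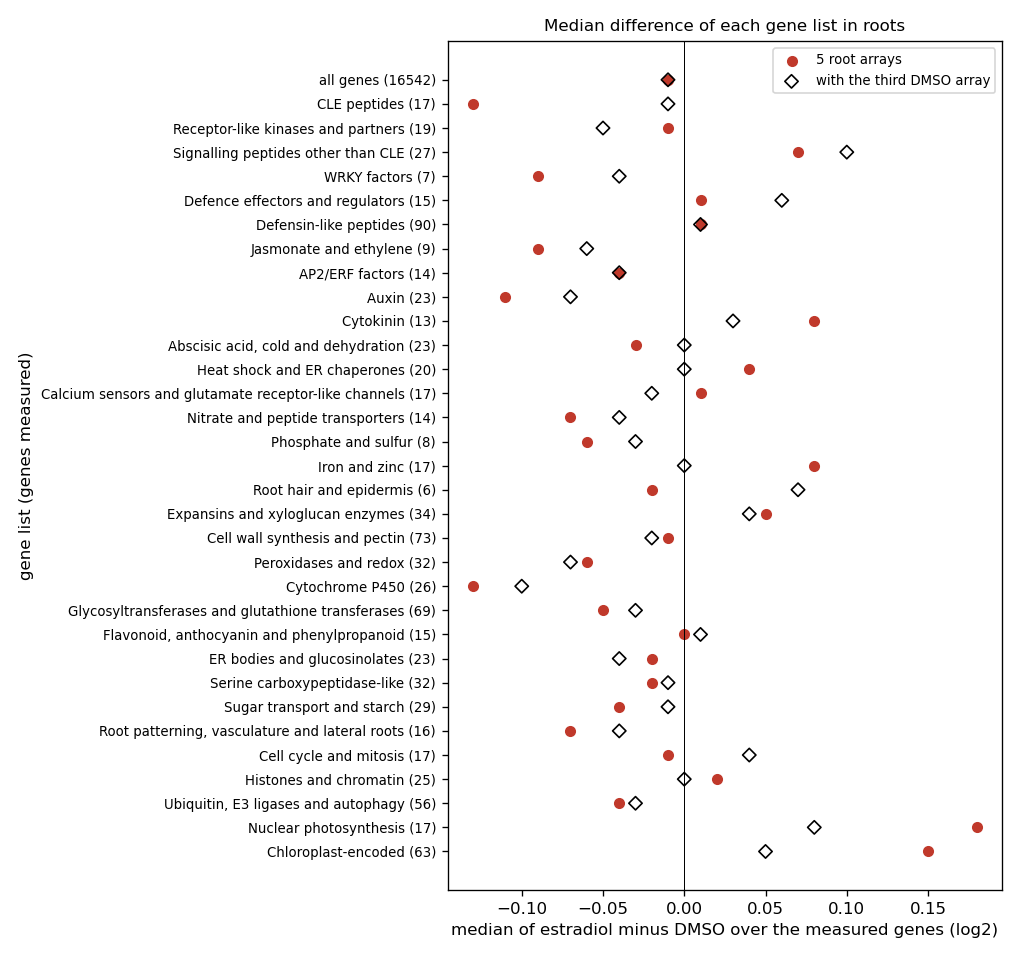
Median of the estradiol minus DMSO difference (x axis, log2) over the measured genes of each list (y axis, number of genes in parentheses), from the 5 root arrays (red) and with the array titled shoot estradiol replicate 3 as the third DMSO array (open diamonds). Every median lies between -0.13 and 0.18, and both photosynthesis lists move towards 0 with the third DMSO array.

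Photosynthesis genes had the largest list medians. All 63 measured chloroplast-encoded genes had a positive difference (46.8% of all genes), median 0.15, and 15 of 17 nuclear photosynthesis genes were positive, median 0.18. With the third DMSO array 43 of 63 and 11 of 17 were positive, with medians of 0.05 and 0.08. No member of either list passed the threshold, and 3 of the 63 chloroplast-encoded genes were higher at an unadjusted p under 0.05 (2.13% of all genes). On the 5 arrays 26 of these 63 genes lay apart and higher (9.63% of all genes). With the third DMSO array 6 did (4.62% of all genes). psbT, a small photosystem II subunit, had 9.12, 9.01 and 9.39 with estradiol, 8.60 and 8.13 with DMSO and 8.38 on the held-out array, a difference of 0.81 (SE 0.20, limma adjusted p 0.838). The 10 genes of the chloroplast NDH complex had a median of 0.23 on the 5 arrays and 0.01 with the third DMSO array.

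Some photosynthesis genes went with the number in the title and others did not. RCA is the activase of Rubisco. It had 8.49 with estradiol and 8.54 with DMSO in replicate 1, and 9.28 and 9.31 in replicate 2. In replicate 3 it had 9.92 with estradiol and 9.78 on the held-out array. SBPASE had the pairs 6.92 and 6.94, 7.58 and 7.63, and 7.88 and 8.05. For RCA and SBPASE, arrays that share a number were closer to each other than arrays that share a treatment. PRK, a Calvin cycle kinase, did not pair in this way, with 5.69 and 6.22 in replicate 1 and 6.36 and 6.91 in replicate 2. Over the 17 nuclear genes the mean level was 6.79, 7.05 and 7.39 with estradiol, 6.88 and 6.96 with DMSO and 7.29 on the held-out array, against 10 to 10.17 on the 5 shoot arrays. The mean of the chloroplast-encoded genes was 11.13, 11.19 and 11.44 with estradiol, 11.06 and 11.09 with DMSO and 11.37 on the held-out array, so replicates 1 and 2 lay at least as close by treatment as by number, and both arrays counted as replicate 3 were highest. Within a number the median difference of the nuclear list was -0.05 in replicate 1, 0.13 in replicate 2 and 0.12 in replicate 3 with the held-out array as DMSO, and that of the chloroplast-encoded list was 0.07, 0.09 and 0.03. Root estradiol replicate 3 had no DMSO array of its number in the main fit, and without it the medians were 0.01 and 0.06. The share of green tissue in the root samples was not tested.

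**Figure D5:**
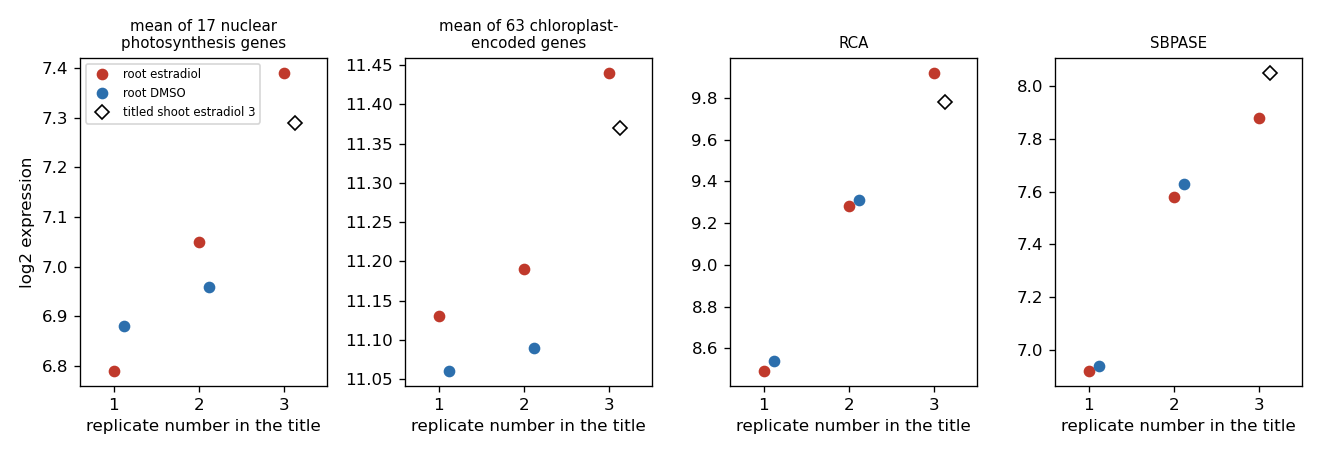
Log2 expression (y axis) of 2 photosynthesis lists (means) and of RCA and SBPASE by the replicate number in the array title (x axis) for root estradiol (red), root DMSO (blue) and the array titled shoot estradiol replicate 3 (open diamond). Each panel has its own scale; the points of RCA and SBPASE that share a number lie within 0.17 of each other.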

How the data were processed

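Per the submitters' processing notes, the authors made the values with Affymetrix Expression Console 1.3, with settings not given in the sources used here. Values are 1 per feature and array, as deposited, and were taken as log2 expression, since values lay between 0.19 and 13.84; no label states the scale. Array medians were 4.99 to 5.09. Groups came from titles. Another label field named estradiol for every root and DMSO for every shoot array and was not used. Of 38408 features, 16722 had 1 gene in the platform annotation, 759 several and 20927 none listed. Symbols were updated with the RefSeq gene table of TAIR10.1 (16574 features matched), giving 16542 genes, each by its brightest feature. Values equal to another feature's were held by 7132 features.

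The 5 root arrays were fitted with limma 3.58.1 (lmFit, eBayes, two-sided) in R 4.3.3, adjusted by Benjamini-Hochberg over all features, after tests on simulated data. Named were features past 0.05, the 12 genes by p and 6 by size in each direction (mean, or higher group's mean, of at least 5, groups apart), up to 4 by p per list with 5 or more members, and 10 genes kept from earlier results; CLE41 and CLE44 fell outside this rule. Arrays, genes and lists were chosen with earlier results of these data known; list members were picked from gene names. Alternatives varied the arrays, variance trend, level filter, scaling, features, replicate block and each array left out.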

Additional observations from a re-analysis of the deposited data

Results flagged for a closer look

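The estradiol effect on feature 13336474 differed between the tissues. In a limma interaction over 10 arrays, without the 2 that went against their tissue labels, the effect in shoots minus that in roots was -5.19 (SE 0.41, limma adjusted p 0.0294). It came from a root difference of 5.08 and a shoot difference of -0.10, and all 3 root estradiol arrays lay above every other array. The feature has no gene name here.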

How the results depend on the processing

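The single call, feature 13336474, held with the third DMSO array, 10 arrays, an intensity trend, filters on a mean of 4 or 5, median centring, quantile normalization and 1 feature per set of identical values, the last chosen after seeing the data. No feature passed (0) with all 3 arrays titled root DMSO, with features of 1 gene alone, which leave this feature out, or with either replicate block, and leaving out each array gave 0 to 0. The limma adjusted p of feature 13336474 was 0.533, 0.430 and 0.285 without root estradiol replicates 1, 2 and 3, and 0.215 and 0.131 without root DMSO replicates 1 and 2; fewer arrays leave fewer degrees of freedom. Features at an unadjusted p under 0.05 numbered 2121, and 948 with all 3 titled DMSO arrays, where the cause was not tested, 942 and 1209 with filters of 5 and 4, and 916 with 1 gene each, which test fewer features. With the replicate block they numbered 2498, or 2512 with the third DMSO array, and the difference of feature 13336474 was 5.20 and 5.00 with limma adjusted p-values of 0.710 and 0.265. Same-numbered arrays deviated together with correlations of 0.133, 0.007 and 0.080 over all features, so the numbers were not taken as pairs. Over genes with a mean of at least 5 these correlations were 0.324, 0.105 and 0.167. Between arrays of unlike number they ran there from -0.266 to 0.121. Whether the numbers mark pairs is thus not settled, and the single call was lost with either block. Of 161 named items 57 changed sign with all 3 titled DMSO arrays and 0 to 4 under each other alternative. List medians changed sign for 20 lists with all 3 titled DMSO arrays, 7 with either level filter and 4 with the third DMSO array. In the other fits counted 0 to 5 lists did. Signal over background was not part of the table, so dim genes carry no detection limit.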

Other observations

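Further gene groups were measured in the same roots. The 20 heat shock and chaperone genes had 13 positive differences and a median of 0.04; BZIP17, a membrane-bound factor of the endoplasmic reticulum stress response, had 6.06, 5.73 and 5.72 with estradiol, 5.50 and 5.49 with DMSO and 5.45 on the held-out array (difference 0.34, SE 0.15, limma adjusted p 0.933). The 56 genes of ubiquitin, E3 ligases and autophagy had 34 negative differences and a median of -0.04; ATG8E, an autophagosome protein, had 6.30, 6.62 and 6.56 against 7.04 and 6.85 (difference -0.45, SE 0.15, limma adjusted p 0.879). The 17 calcium sensors and glutamate receptor-like channels had 9 positive and 8 negative differences. Their median was 0.01, and -0.02 with the third DMSO array. Of them 2 lay apart and higher with that array (4.62% of all genes). These were CML23, a calmodulin-like protein at a low level of 1.94 with DMSO, and GLR2.8, a glutamate receptor-like channel. They differed by 0.60 (SE 0.20) and 0.39 (SE 0.15), while GLR2.2, a further channel of the list, had -0.50 (SE 0.25). BGLU19, a beta-glucosidase, had 4.17, 4.13 and 3.48 against 4.83 and 4.4 with a held-out value of 4.81 (difference -0.69, SE 0.26).

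Of the 50 features with the smallest p, 43 had a mean under 5 and 5 stood for 1 named gene, and they held 21 distinct sets of values.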
